A study of Mus musculus with 12 samples.

Results

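The Hox cluster genes were followed in N2A cells, a mouse neuroblastoma line that extends neurites when it is treated with retinoic acid (RA). The members were the probe sets whose single gene symbol is Hoxa, Hoxb, Hoxc or Hoxd with a number from 1 to 13. This gave 37 genes with 1 probe set each, of 21789 probe sets that carry 1 gene symbol: 10 in the Hoxa cluster and 9 in each of the other 3. Hoxb8 shared its probe set with Hoxb7 and was not counted.

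RNA was measured on 12 whole-transcript arrays, 3 in each of 4 groups, and each value is a log2 expression value after normalisation of the arrays to each other. Control cells carried a stably integrated scrambled short hairpin RNA (shRNA), and KD cells a stable shRNA against Dali, a long non-coding RNA made downstream of the neural transcription factor gene Pou3f3. Both kinds of cell were selected with hygromycin and were measured while proliferating in medium with 10% serum, or after 72 h with 20 uM all-trans RA in medium with 2% serum. RA and the drop in serum therefore cannot be told apart. The study describes 3 clonal KD lines set against a stable control line, and its methods call the 3 samples of a group biological replicates. The labels do not say which clone an array holds, so a p-value here measures only the spread between these arrays. No probe set was assigned to Dali, so the knockdown itself could not be checked.

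Hox genes encode homeodomain transcription factors that give cells their position along the head-to-tail axis. They lie in 4 clusters, and within a cluster the genes with low numbers are switched on earlier and nearer the head than those with high numbers. Genes with the same number in different clusters are paralogues, copies of one ancestral gene. In embryos and in several stem cell and carcinoma lines RA switches on the low-numbered genes first, through RA receptors bound to pairs of half-sites near the clusters, while Polycomb proteins keep silent clusters closed.

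No Hox gene reached the call used here, an adjusted p under 0.05 (limma, Benjamini-Hochberg over all 21789 probe sets) together with a change of at least 1.3-fold, in any of the 5 comparisons. The same call was made for 3.36% of all probe sets for KD against control in proliferating cells and for 3.8% after RA. It was made for 4.51% for RA in control cells, for 4.9% for RA in KD cells and for 0.399% for the interaction, the difference between the 2 RA responses (KD minus control). With an unadjusted limma p under 0.05, 5, 7, 4, 4 and 2 of the 37 Hox genes passed in these 5 comparisons, against 30%, 33%, 28.2%, 31.3% and 14.9% of all probe sets.

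Smaller shifts were measured for 7 Hox genes: Hoxa5, Hoxb7, Hoxc4, Hoxc6, Hoxc9, Hoxc10 and Hoxd11. With the adjusted p alone and no fold limit, 3 of 37 passed for KD in proliferating cells (8.11%, against 18.4% of all probe sets) and 4 of 37 for KD after RA (10.8%, against 21.6%). For RA in control cells 1 of 37 passed (2.7%, against 17.5%), for RA in KD cells 2 of 37 (5.41%, against 21.1%), and for the interaction 0 of 37 (limma; against 0.565%). The shares of Hox genes past this threshold were thus below those of all probe sets in the comparisons of 2 groups, and the difference in share was not tested. At a share of 0.565% a set of 37 genes would mostly hold 0, so the interaction says little here. All probe sets are not matched to the Hox genes in level: the median Hox probe set was at the 31.6th percentile of level.

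Overlap between the arrays of 2 groups gives the same comparison without a model. In proliferating cells 11 of 37 Hox genes had KD and control arrays that did not overlap (29.7%, against 38.7% of all probe sets), and after RA 10 of 37 (27%, against 33.9%). Between RA-treated and proliferating arrays this held for 8 of 37 in control cells (21.6%, against 33.5%) and for 6 of 37 in KD cells (16.2%, against 34.9%). The shares of Hox genes were again below those of all probe sets, with no test of the difference and no matching for level.

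**Figure D1:**
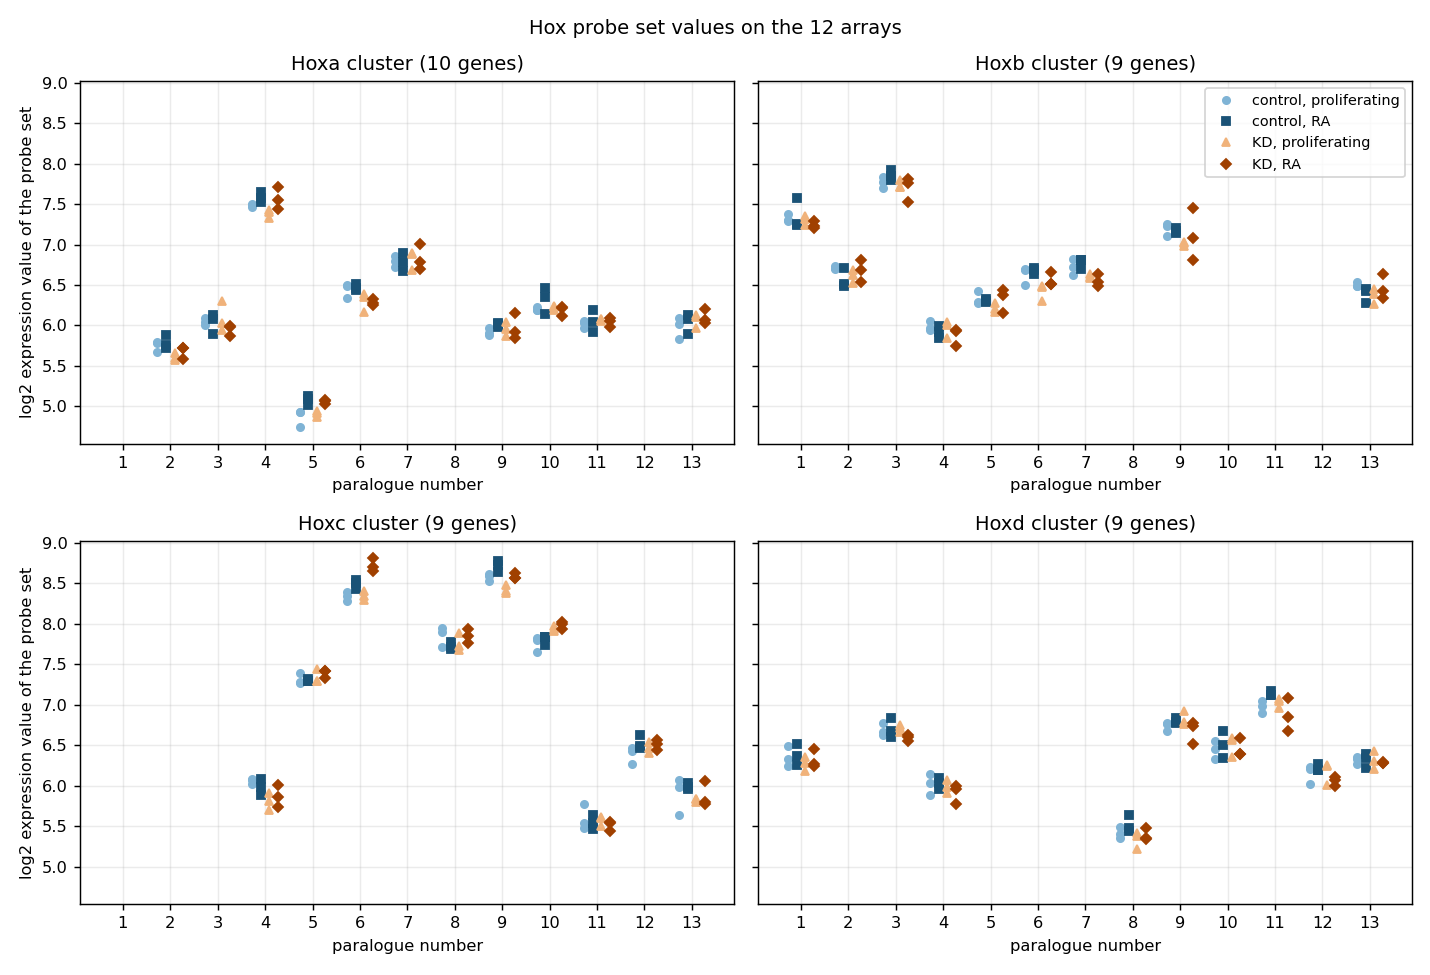
Log2 expression values (vertical axis) of the 37 Hox probe sets against paralogue number (horizontal axis), 1 panel per cluster, with a point for each of the 12 arrays coloured by group. The 4 groups lie close together for every gene, and the separation of Hoxc6 in KD cells after RA is visible in the Hoxc panel.

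Mean values over the 12 arrays ran from 4.98 for Hoxa5 to 8.57 for Hoxc9 on the log2 scale. The cluster ranges were 4.98 to 7.5 for Hoxa, 5.94 to 7.76 for Hoxb, 5.56 to 8.57 for Hoxc and 5.42 to 7.0 for Hoxd. Probe sets differ in brightness for the same amount of RNA, so these levels do not rank the genes, and the deposited values carry no detection call. As a guide to background, the 1023 probe sets of olfactory receptor genes, which are mostly silent outside the nose, had a 95% point at the 35.4th percentile of level among all probe sets. Of the 37 Hox probe sets 15 lay above it (2 Hoxa, 5 Hoxb, 5 Hoxc and 3 Hoxd) and 22 did not. For those 22 a value of a change may be that of a background signal, and no exact fold is read from it. The mean over all 37 genes lay between 6.57 and 6.6 on the proliferating control arrays, 6.59 and 6.64 on the control arrays after RA, 6.53 and 6.58 on the proliferating KD arrays and 6.52 and 6.64 on the KD arrays after RA. The ranges overlap, except that the control arrays after RA lie above the proliferating KD arrays.

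The labelled cell type was checked against marker genes. The 11 measured markers of sympathoadrenal neuroblasts, the lineage of neuroblastoma, had probe set means of 7.17 to 12.1, and 11 of 11 lay above the olfactory receptor point, as did 7 of 11 markers of fibroblasts and mesenchyme and 3 of 7 of glia. Levels of different probe sets are not comparable, so these counts do not measure how pure the cells were. Among the neuroblast markers 4 were called higher in proliferating KD cells, 1 higher and 2 lower in KD cells after RA, and 4 lower with RA in each kind of cell. Th and Dbh, which encode enzymes of catecholamine synthesis, rose by 0.51 and 0.62 in proliferating KD cells and fell with RA, by 0.62 and 0.56 in control cells. Chgb and Gata2 went the other way in proliferating KD cells, at -0.30 and -0.21 (limma, adjusted p = 0.0042 and 0.00657, under the fold limit). Phox2a and Isl1 rose with RA in control cells, by 0.36 and 0.28 (limma, adjusted p = 0.00124 and 0.00671, under the fold limit). The median of the 11 was -0.01 for KD in proliferating cells and -0.13 for RA in control cells. Markers of fibroblasts and mesenchyme (11 measured, means 4.07 to 7.84) and of glia (7 measured, means 6.04 to 7.03) were called in no RA comparison, with 2 and 0 of them at an unadjusted limma p under 0.05 in control cells and 2 and 1 in KD cells. Of the fibroblast list, Pdgfrb, a growth factor receptor gene, was called lower in KD cells in both states, by 0.85 and 0.39 on the log2 scale. Of all probe sets 3.36% were called for KD in proliferating cells and 3.8% after RA, and 4.51% and 4.9% for RA in control and KD cells. An unadjusted limma p under 0.05 for RA was found for 28.2% of them in control cells and 31.3% in KD cells. Whether these marker changes bear on the Hox values was not tested.

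The RA response of control cells asks most directly whether these cells switch on Hox genes with RA. Of the 37 genes 25 had a change above 0 and 12 below, with a median of 0.04 against 0.00234 for all probe sets. Hoxa5, which patterns the lung and the neck-level skeleton, rose by 0.21 ± 0.06 (SE; adjusted p = 0.0206). It had the lowest level of the Hox probe sets (percentile 8.92) and was not above the olfactory receptor point. It read 4.94, 4.93 and 4.75 on the proliferating control arrays and 5.13, 5.02 and 5.09 after RA. All 3 RA arrays were above all 3 proliferating arrays. The adjusted p was over 0.05 without the third proliferating control array (change 0.14, adjusted p = 0.0775) and without control array 1 (0.18, 0.0731) or 3 (0.20, 0.0609) after RA, with the 6 arrays of the comparison alone (0.0684) and with a mean-variance trend (0.0896). The largest fall was that of Hoxb2, a hindbrain gene, at -0.14 ± 0.08 (SE), with an adjusted p of 0.248 in limma.

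The confidence intervals give the range of change that each probe set allows. In control cells the 95% confidence intervals of all 37 genes lay inside 1.3-fold in either direction: the highest upper bound was 0.34 (Hoxd11, 1.27-fold) and the lowest lower bound -0.31 (Hoxb2, a 1.24-fold decrease). In KD cells the intervals of 36 genes lay inside 1.3-fold, and the exception was Hoxc6, with an upper bound of 0.50 (1.41-fold). They bound a change in RNA only where a probe set reads its transcript above background, and 22 of the 37 were not above the olfactory receptor point. That point is only a guide for the other genes too, since 7 of 11 markers of fibroblasts and mesenchyme and 3 of 7 of glia also lay above it. The confidence intervals cover the spread between arrays, and array values can understate changes of dim genes, by an amount that was not measured here.

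Hoxc6 gave the largest Hox change of the series in KD cells after RA. This gene helps to set the thoracic level of the trunk and is expressed in the spinal cord. On the 3 proliferating KD arrays it read 8.40, 8.34 and 8.30, and on the 3 KD arrays after RA 8.70, 8.66 and 8.82. The groups did not overlap, and the rise was 0.38 ± 0.05 (SE; 1.3-fold when rounded, just under the limit), with an adjusted p of 0.000317 in limma. The gene reached the call when the quantile normalisation was repeated over the named probe sets (0.41) or each array was centred on its median (0.40). It also reached it without the first proliferating KD array (0.40) or without the first (0.39) or second (0.41) KD array after RA.

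In control cells Hoxc6 read 8.40, 8.34 and 8.28 while proliferating and 8.54, 8.50 and 8.43 after RA. The change was 0.15 ± 0.05 (SE), with an adjusted p of 0.0756 in limma. The 2 RA responses differed by 0.22 ± 0.08 (SE), and this interaction did not pass (adjusted p = 0.199). After RA, Hoxc6 was higher in KD than in control cells by 0.23 ± 0.05 (SE; 1.17-fold, adjusted p = 0.00912), and in proliferating cells the difference was 0.01.

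Hoxc9, a regulator of thoracic motor neurons, was the other gene that passed for RA in KD cells. Hoxc8, which lies between Hoxc6 and Hoxc9, had a change of 0.09 (adjusted p = 0.461). Hoxc9 read 8.38, 8.40 and 8.48 on the proliferating KD arrays and 8.62, 8.56 and 8.56 after RA. The rise was 0.16 ± 0.05 (SE; adjusted p = 0.0297), and in control cells the change was 0.14 ± 0.05 (SE; adjusted p = 0.0782). The arrays did not overlap between the states in either kind of cell. In KD cells the adjusted p of Hoxc9 was over 0.05 without the first or second proliferating array (0.11 and 0.0957) and without the first or second array after RA (0.0877 and 0.0564), and with the 6 arrays of the comparison alone (0.0597). The largest fall with RA in KD cells was that of Hoxd11, a limb and kidney gene, at -0.16 ± 0.08 (SE), which did not pass (adjusted p = 0.222). Without the third KD array after RA it was -0.27 (adjusted p = 0.0124), and without the first -0.06 (0.618).

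**Figure D2:**
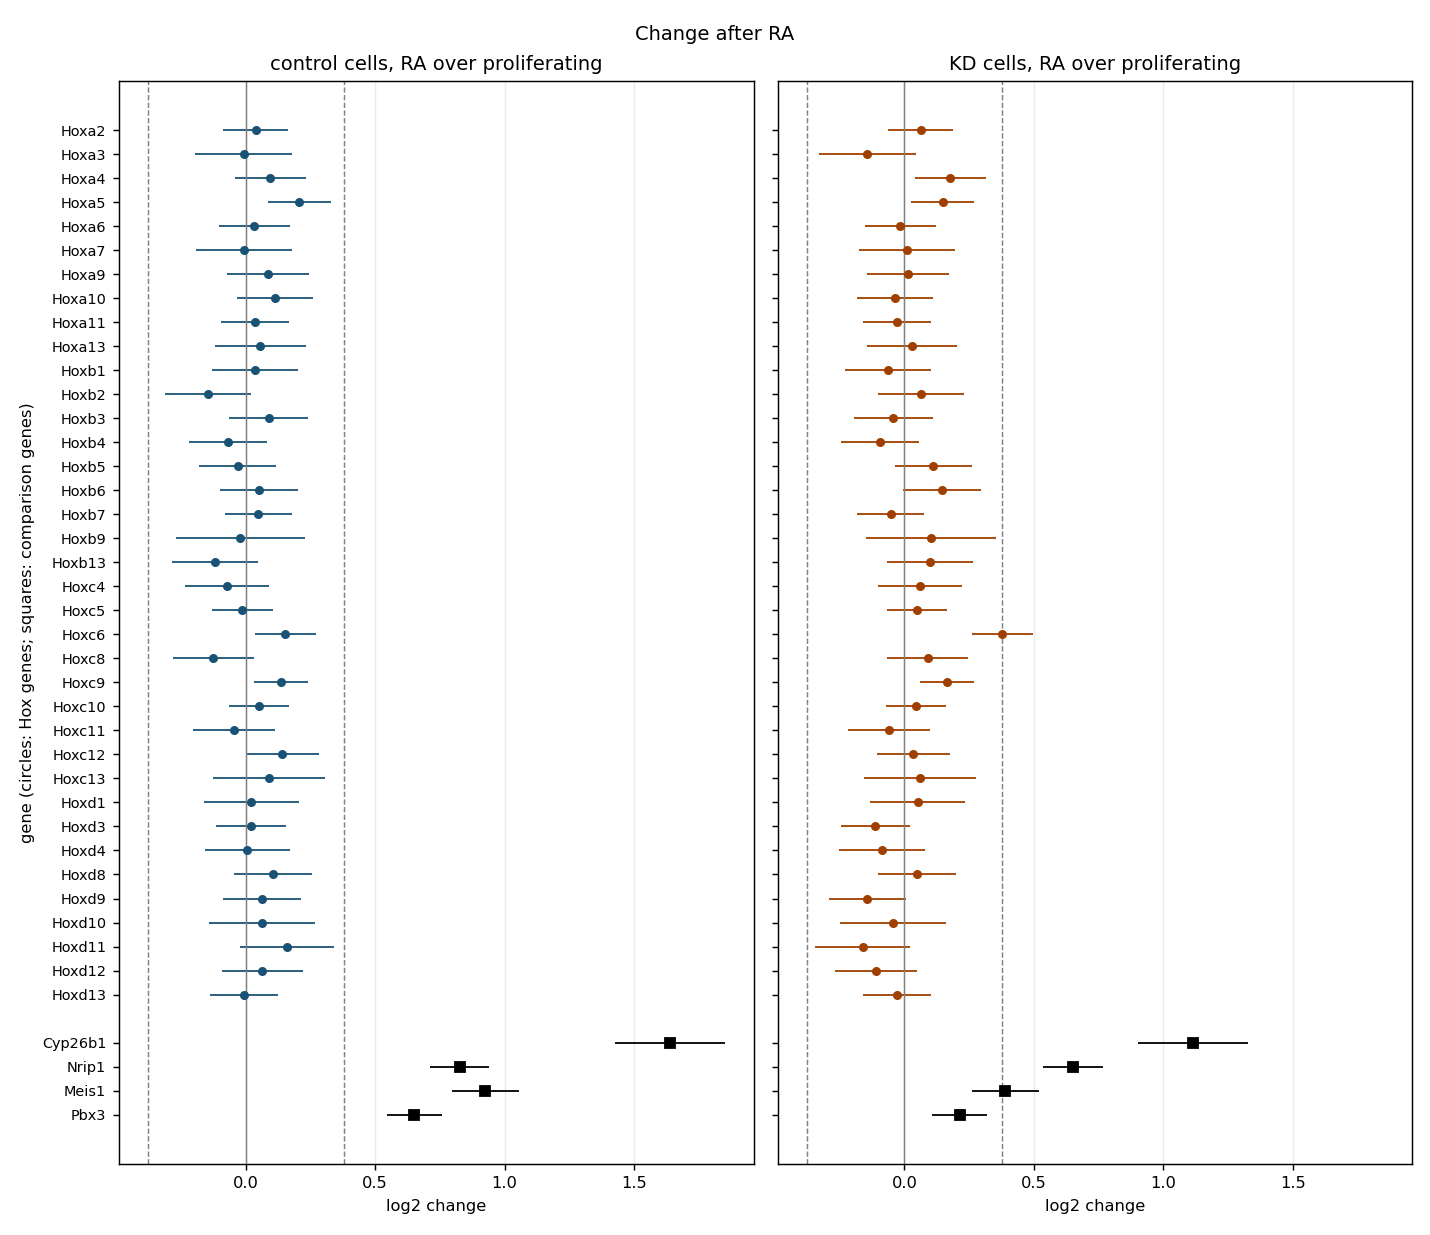
Log2 change after RA (horizontal axis, both panels on one scale) of each Hox gene (circles) and of 4 comparison genes (squares) in control cells and in KD cells, with 95% confidence intervals from limma; dashed lines mark 1.3-fold. The Hox genes lie between -0.16 and 0.38, whereas Cyp26b1 rose by 1.64 in control cells and 1.11 in KD cells.

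A few genes of the RA pathway did move on the same arrays, and most did not. Of 15 measured genes of the RA pathway and direct RA targets, 2 were called higher, 1 lower and 12 not called in each kind of cell. Of all probe sets 4.51% were called in control cells and 4.9% in KD cells. Cyp26b1, which encodes an enzyme that degrades RA, read 7.14, 7.15 and 7.48 on the proliferating control arrays and 8.95, 8.78 and 8.95 after RA. Its rise was 1.64 in control cells (adjusted p = 2.41e-07) and 1.11 in KD cells (adjusted p = 5.55e-06). Nrip1, a corepressor of nuclear receptors, rose by 0.83 and 0.65, and Stra6, the retinol uptake receptor, fell by 0.61 and 0.41. Rarb and Cyp26a1, which carry well-known RA response elements in their promoters, had changes of 0.21 and 0.01 in control cells, with adjusted p-values of 0.117 and 0.929 in limma. Neither lay above the olfactory receptor point (percentiles 22.3 and 19.1), so these values may be those of a background signal. Dhrs3, of the same list, did lie above it (percentile 40.6). Its changes with RA were -0.09 in control cells and 0.07 in KD cells (limma, adjusted p = 0.516 and 0.617).

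The classical RA response element is a direct repeat of 2 half-sites with 5 bases between them. Its AGGTCA repeat and its variants GGTTCA with AGTTCA and a doubled AGTTCA were searched on both strands in RefSeq promoter windows (GRCm38.p6, 250 bases before to 50 after each start). Of 32851 windows in the mouse, 13 held one of them (0.0396%), including those of Rarb and Cyp26a1. The 23 windows of 21 Hox genes held none. A single half-site of any of these 3 forms was found in 10 of the 23 Hox windows (43.5%) and in 35.0% of all windows. These letters describe the windows only and leave out the more distant elements through which the clusters respond to RA in embryos.

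The repeats of Rarb (chr14:16575501-16575541, minus strand) and Cyp26a1 (chr19:37697764-37697804, plus strand) are shown with the half-sites in capitals, because they are the form that was searched for. The 250 bases before the start of the group 4 paralogues Hoxb4 (chr11:96318017-96318266), Hoxc4 (chr15:103034145-103034394) and Hoxd4 (chr2:74721728-74721977), all on the plus strand, are shown beside them with single half-sites in capitals on either strand.
Rarb: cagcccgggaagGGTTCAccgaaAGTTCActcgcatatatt
Cyp26a1: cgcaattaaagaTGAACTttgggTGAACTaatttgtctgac
Hoxb4: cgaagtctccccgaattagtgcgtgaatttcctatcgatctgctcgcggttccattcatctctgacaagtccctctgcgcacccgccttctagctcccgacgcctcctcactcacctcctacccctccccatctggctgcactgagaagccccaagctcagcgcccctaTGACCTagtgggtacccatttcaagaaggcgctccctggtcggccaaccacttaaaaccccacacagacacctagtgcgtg
Hoxc4: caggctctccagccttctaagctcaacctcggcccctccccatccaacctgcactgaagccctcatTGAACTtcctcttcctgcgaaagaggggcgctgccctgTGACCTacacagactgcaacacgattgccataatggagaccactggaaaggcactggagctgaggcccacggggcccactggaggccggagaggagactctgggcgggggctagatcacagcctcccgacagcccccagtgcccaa
Hoxd4: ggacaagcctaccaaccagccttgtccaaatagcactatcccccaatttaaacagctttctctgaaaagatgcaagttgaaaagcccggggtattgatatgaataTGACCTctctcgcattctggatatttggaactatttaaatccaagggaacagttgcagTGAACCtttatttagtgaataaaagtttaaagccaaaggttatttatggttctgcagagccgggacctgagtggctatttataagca

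These 3 paralogues did not pass for RA in either kind of cell. The other member of group 4, Hoxa4, had changes of 0.09 in control cells (adjusted p = 0.382) and 0.18 in KD cells (adjusted p = 0.0672), and its arrays did not overlap between the states in either. Grouped by position in the cluster, the median RA change was 0.02 for the anterior genes (numbers 1 to 3, 7 genes), 0.02 for the central genes (4 to 8, 14 genes) and 0.06 for the posterior genes (9 to 13, 16 genes) in control cells. In KD cells the same medians were -0.04, 0.05 and -0.01, against -0.02 for all probe sets. Of the 8 paralogue numbers with 3 or more members, all members of 6 and 10 were above 0 in control cells. In KD cells all members of 5 were above 0 and all members of 3 and 11 below. These are directions of small changes, and no member of these numbers had an adjusted p under 0.05 in that comparison (limma; the lowest were 0.0756 for Hoxc6 in control cells and 0.0825 for Hoxa5 in KD cells).

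For the knockdown in proliferating cells, 16 Hox genes were above 0 and 21 below (median -0.02, against -0.01 for all probe sets), and 3 genes of the Hoxc cluster passed with the adjusted p alone. Hoxc4, active at neck level, read 6.02, 6.07 and 6.08 in control cells and 5.91, 5.70 and 5.81 in KD cells. The groups did not overlap, and the fall was 0.25 ± 0.07 (SE; adjusted p = 0.0347). Hoxc4 was not above the olfactory receptor point (percentile 21.7). Without any 1 of the control arrays, or without the second or the third KD array, the adjusted p of Hoxc4 was over 0.05 (0.0618 to 0.141), as it was over all probe sets of the table (0.0646). Hoxc9 fell by 0.16 ± 0.05 (SE; adjusted p = 0.0387), and its adjusted p was over 0.05 when control array 1 (0.104) or 3 (0.126), KD array 1 (0.135) or 2 (0.113), or the second array of either group after RA was left out (0.0504 and 0.0501). It was also over 0.05 over all probe sets of the table (0.0575) and with arrays centred on their medians (0.0608). After RA Hoxc9 was lower in KD cells as well, by 0.13 ± 0.05 (SE), and did not pass (limma, adjusted p = 0.0775). Its KD and control arrays did not overlap in either state. Hoxc10, which marks lumbar motor neurons, rose by 0.18 ± 0.05 (SE; 1.14-fold, adjusted p = 0.0303).

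Hoxc10 was the gene that passed in both states of the knockdown. It read 7.79, 7.82 and 7.65 on the proliferating control arrays and 7.91, 7.98 and 7.93 on the proliferating KD arrays. After RA it read 7.84, 7.84 and 7.74 in control cells and 7.93, 8.02 and 7.9997 in KD cells, a rise of 0.18 ± 0.05 (SE; adjusted p = 0.0343). The KD arrays were above the control arrays in both states, without overlap. The states have no arrays in common, but the study describes the same stable KD and control lines for both. Their limma tests also share a spread estimated from the arrays of all groups. The states are therefore not independent tests, and whether the lines differ apart from the knockdown was not tested. In proliferating cells the adjusted p was over 0.05 without the third control array (change 0.13, adjusted p = 0.13) or any 1 KD array (0.0569 to 0.106). After RA it was over 0.05 without control array 2 or 3 (0.0559 and 0.125) or KD array 2 or 3 (0.108 and 0.0718), and with the 6 arrays after RA alone (0.0755).

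After RA, 9 Hox genes were above 0 and 28 below (median -0.05, against -0.03 for all probe sets, of which 58.4% were below 0). These counts depend on the scaling. They were 15 and 22 when the quantile normalisation was repeated (median -0.01) and 11 and 26 with arrays centred on their medians (median -0.04). Besides Hoxc6 and Hoxc10, which rose, Hoxb7 and Hoxd11 passed with lower values in KD cells. Hoxb7, a trunk gene also known from tumours, read 6.69, 6.81 and 6.81 in control cells and 6.49, 6.54 and 6.64 in KD cells. The groups did not overlap, and the fall was 0.22 ± 0.06 (SE; adjusted p = 0.0202). Without control array 2 or 3, or KD array 1 or 2, the adjusted p was 0.0603 to 0.0738, and with the 6 arrays after RA alone it was 0.0547. Hoxb7 and Hoxb8 share a further probe set that was not used.

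Hoxd11 read 7.12, 7.12 and 7.16 in control cells after RA and 6.67, 6.84 and 7.09 in KD cells, a fall of 0.27 ± 0.08 (SE; adjusted p = 0.0407). The spread between the KD arrays was wide (SD 0.208, against 0.0273 in control cells). Without the first KD array after RA the fall was 0.17, with an adjusted p of 0.144, and it was also over 0.05 without any 1 control array after RA (0.0734 to 0.11) or the second KD array after RA (0.104). Without the second array of proliferating control cells, or the second or the third of proliferating KD cells, which enter only through the shared spread, it was 0.0526 to 0.0549. Over all probe sets of the table it was 0.067, and with the 6 arrays after RA alone 0.112. Its interaction was the lowest of the Hox genes, at -0.32 ± 0.12 (SE), and did not pass (adjusted p = 0.231).

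**Figure D3:**
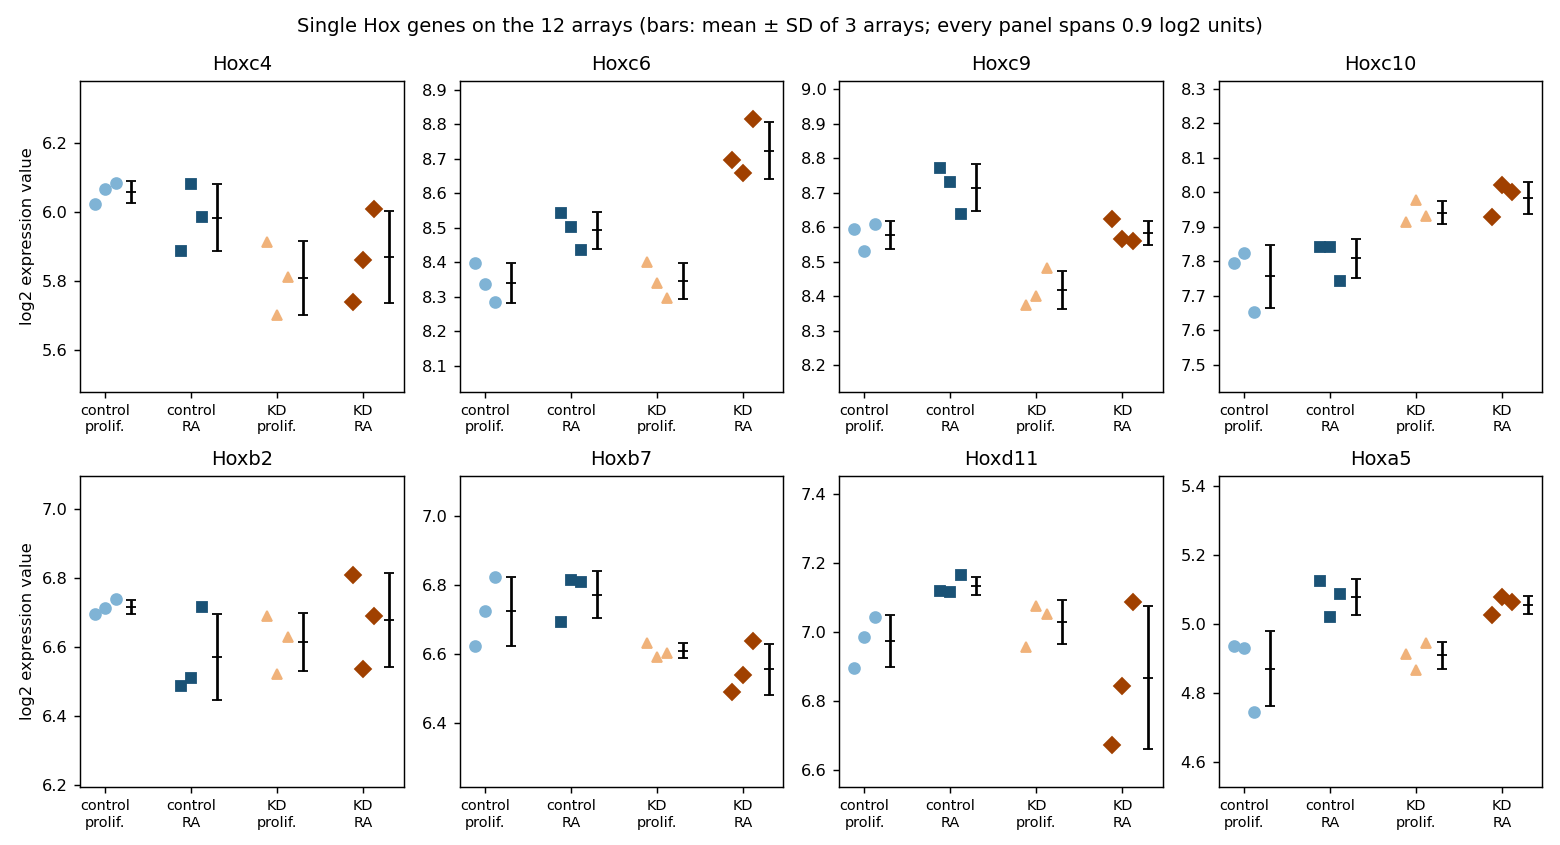
Log2 expression values of 8 Hox genes on the 12 arrays, by group, with the mean and SD of the 3 arrays as bars; each panel spans the same range of log2 units. Hoxc6 separates from the other groups in KD cells after RA, Hoxc10 is higher in KD cells in both states, and the 3 KD arrays of Hoxd11 after RA are spread widely.

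**Figure D4:**
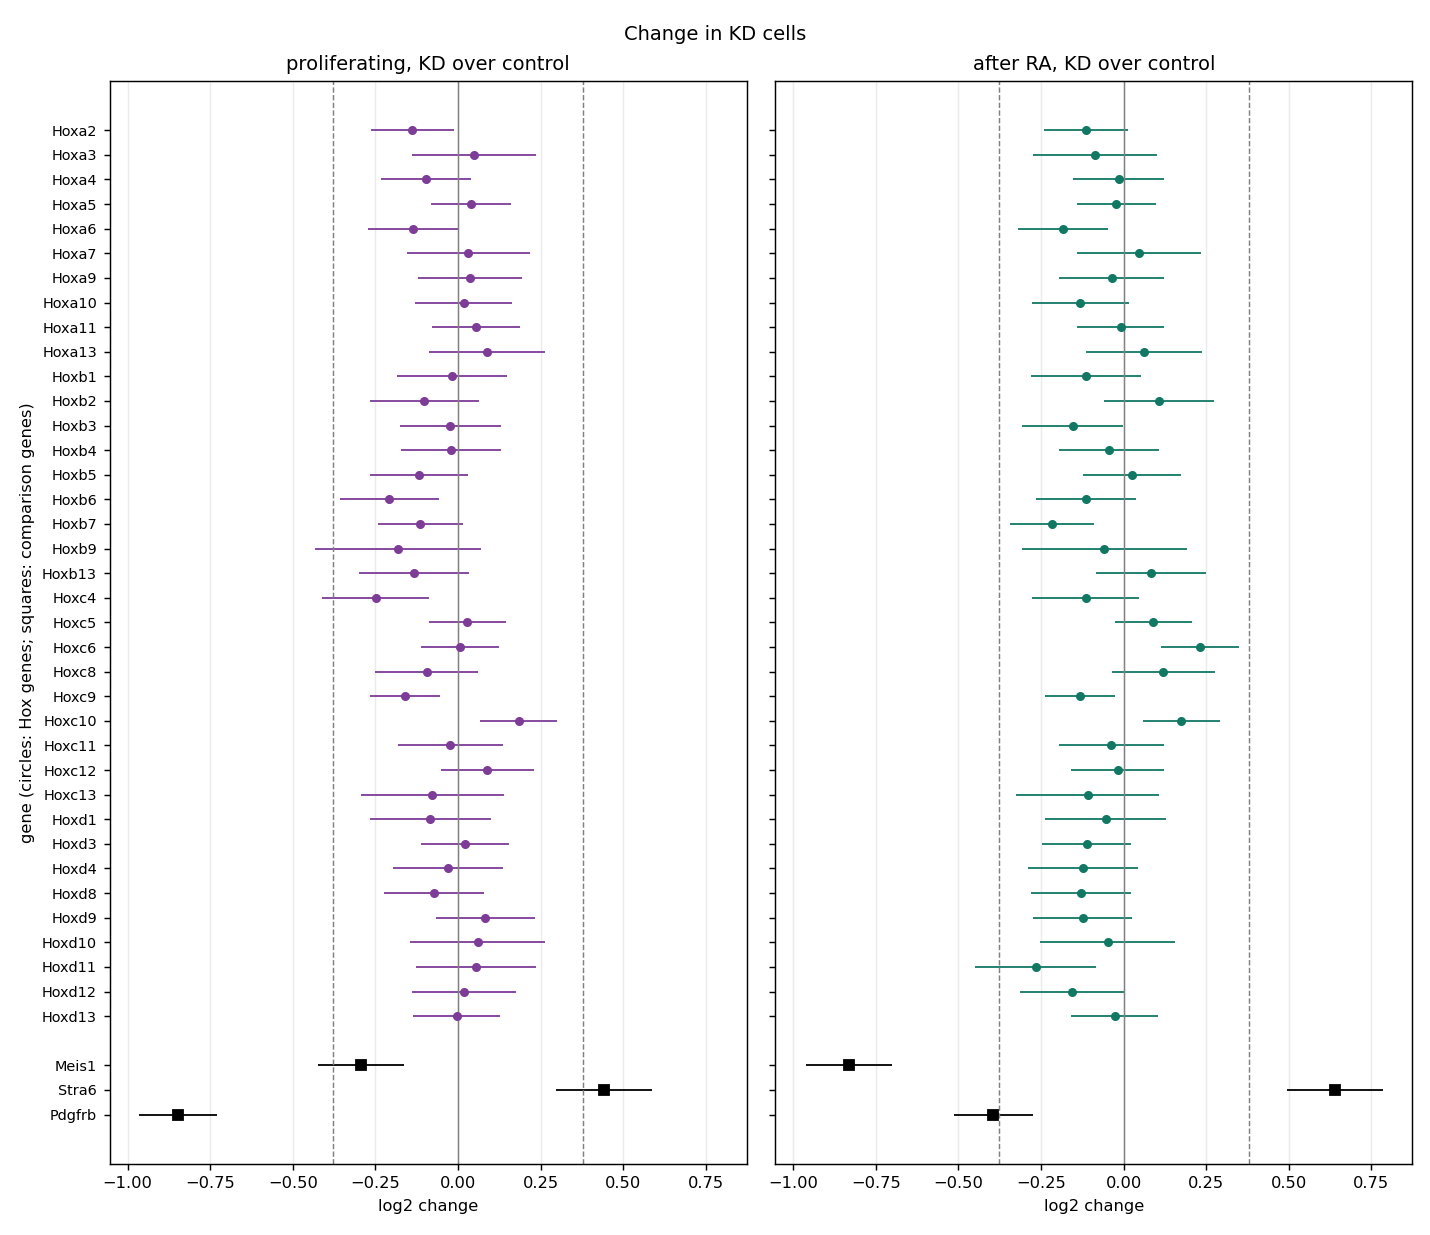
Log2 change in KD over control cells (horizontal axis, both panels on one scale) of each Hox gene (circles) and of Meis1, Stra6 and Pdgfrb (squares), in proliferating cells and after RA, with 95% confidence intervals from limma; dashed lines mark 1.3-fold. The Hox genes lie within -0.27 and 0.23 in both states.

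Whole clusters leaned to one side in a pair of comparisons. All 9 Hoxb genes were lower in proliferating KD cells, with a median of -0.11 and a range of -0.21 (Hoxb6) to -0.02 (Hoxb1), and 0 of the 9 passed in limma. Hoxb6 had an adjusted p of 0.0558 and was the 1 gene of the 9 with an unadjusted p under 0.05. All 9 Hoxd genes were lower in KD cells after RA, with a median of -0.12 and a range of -0.27 (Hoxd11) to -0.03, and Hoxd11 alone passed. Both counts became 8 of 9 when the quantile normalisation was repeated, with medians of -0.08 in each case. The Hoxd median was -0.06 without the first KD array after RA. In the same comparisons 53.3% and 58.4% of all probe sets were lower, and genes of a cluster lie next to each other and are not independent. Of the 9 probe sets of each cluster, 5 of Hoxb and 3 of Hoxd lay above the olfactory receptor point, and Hoxb6 did not. The values of the others may be those of a background signal.

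In the other state the same clusters were mixed. The Hoxb median was -0.06 after RA, with 6 of 9 genes lower, and the Hoxd median was 0.02 in proliferating cells, with 4 of 9 lower. The Hoxa genes had medians of 0.03 in proliferating cells (7 of 10 higher) and -0.03 after RA (8 of 10 lower, 4 of 10 when the quantile normalisation was repeated). The Hoxc medians were -0.02 in both states, and this cluster held both the highest and the lowest knockdown change in proliferating cells (Hoxc10 and Hoxc4). With RA, 8 of 9 Hoxd genes were higher in control cells and 7 of 9 lower in KD cells, with medians of 0.06 and -0.09, and 0 of the 9 passed for the interaction. Of the 8 paralogue numbers with 3 or more members, all of 10 were higher and all of 4 lower in proliferating KD cells. After RA all members of 3, 4, 9 and 11 were lower in KD cells. When the quantile normalisation was repeated, only number 10 in proliferating cells and number 3 after RA stayed on one side. Of these members Hoxc4 and Hoxc10 passed in proliferating cells and Hoxd11 after RA.

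Genes around the clusters were compared with them from the RefSeq gene order, taking up to 25 measured genes on each side. Next to the Hoxd cluster the medians for KD after RA were -0.02 on the low-coordinate side and 0.00237 on the other, against -0.12 for the Hoxd genes. Next to the Hoxb cluster they were -0.06 and 0.01 in proliferating KD cells, against -0.11. Around the Hoxc cluster the neighbours on one side had the lower medians. On the low-coordinate side, beyond Hoxc13, 27 of 30 probe sets were lower in proliferating KD cells (median -0.16) and 26 of 30 after RA (median -0.14), whereas the Hoxc medians were -0.02 in both states and those of the other side 0.000484 and -0.01. No test of these differences was made.

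**Figure D5:**
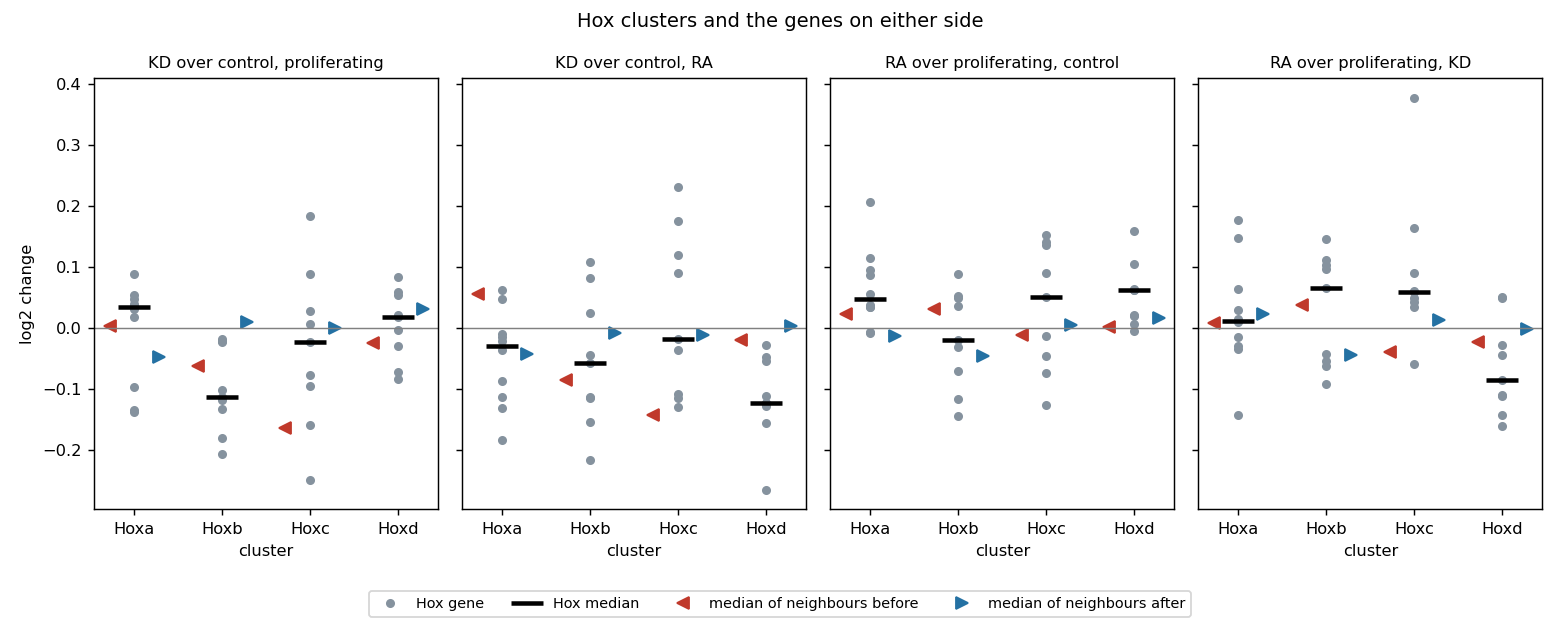
Log2 change (vertical axis) of the Hox genes of each cluster (grey points, bar at the median) and the median of the neighbouring genes before (left triangle) and after (right triangle) the cluster in chromosome order, for 4 comparisons. The Hoxc cluster lies near 0 for the knockdown while its neighbours on one side have medians of -0.16 and -0.14.

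The clusters also contain small and antisense RNA genes. The microRNA genes there fall into families by their seed, bases 2 to 8, which pairs with target RNAs and is shown in capitals in the RefSeq mature sequences. In GRCm38.p6 miR-10a-5p lies at chr11:96317186-96317208, miR-10b-5p at chr2:74726074-74726096 and miR-615-3p at chr15:103014969-103014990, all on the plus strand. miR-196a-5p comes from chr11:96265187-96265208 and chr15:102973365-102973386 (plus strand) and miR-196b-5p from chr6:52230129-52230150 (minus strand). The miR-10 pair share one seed and the miR-196 pair another.
miR-10a-5p: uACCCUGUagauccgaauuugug
miR-10b-5p: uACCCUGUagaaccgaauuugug
miR-196a-5p: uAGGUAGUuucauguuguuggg
miR-196b-5p: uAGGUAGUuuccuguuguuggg
miR-615-3p: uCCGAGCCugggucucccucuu
In RefSeq Mir10a lies upstream of Hoxb4 and Mir10b inside the Hoxd4 gene model. The miR-196 genes, known to target several Hox transcripts, lie upstream of group 9 genes. The 6 microRNA probe sets (Mir10a, Mir10b, Mir196a-1, Mir196a-2, Mir196b and Mir615) had no call in any comparison. Their changes were -0.28 to 0.23, with a lowest adjusted p of 0.0849 in limma. An unadjusted p under 0.05 was found in 4 of 30 tests, against 14.9% to 33% of all probe sets by comparison. Mir615 alone (percentile 61.0) lay above the olfactory receptor point, so the values of the others may be those of a background signal. Among 4 probe sets of the 3 genes Hoxaas2, Hoxd3os1 and Haglr, which are transcribed within the clusters, the changes lay between -0.15 and 0.10. The lowest adjusted p was 0.166 in limma, and 0 of 20 tests had an unadjusted p under 0.05. Of these probe sets only 1 of Hoxd3os1 (percentile 43.4) lay above the olfactory receptor point.

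Genes that act with or upstream of Hox proteins were read from lists. Hox proteins bind DNA together with Pbx and Meis family proteins, and of 8 measured cofactor genes 2 were called higher with RA in control cells and 1 in KD cells. Of all probe sets 4.51% and 4.9% were called there. Meis1 read 8.03, 8.04 and 7.87 on the proliferating control arrays and 8.93, 8.96 and 8.83 after RA. On the KD arrays it read 7.63, 7.71 and 7.72 while proliferating and 8.05, 8.16 and 8.02 after RA. All RA arrays were above the proliferating arrays of the same cells, with rises of 0.93 in control cells and 0.39 in KD cells.

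The RA response of Meis1 was smaller in KD cells by 0.54 (interaction, adjusted p = 0.0227), and after RA the gene was lower in KD cells by 0.83 (adjusted p = 4.11e-06). Pbx3 rose by 0.65 with RA in control cells (adjusted p = 1.59e-06) and had a change of 0.21 in KD cells, under the fold limit, with an interaction of -0.44 (adjusted p = 0.0227). The other 6 cofactor genes had no call. The cofactor median was 0.06 with RA in control cells and -0.13 for KD after RA, against 0.00234 and -0.03 for all probe sets.

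Of 8 measured upstream activators of Hox genes, such as the Cdx factors and Wnt3a, 1 was called: Gdf11, a secreted signal for posterior identity, was lower in KD cells after RA by 0.40 (adjusted p = 0.000687). Among 30 probe sets of 27 Polycomb genes, which keep Hox clusters silent, Ezh2 was called higher after RA, by 0.52 in control and 0.45 in KD cells. One of the 2 probe sets of Phc3 was called higher in proliferating KD cells (0.46), and the other was not (-0.01). Of 14 probe sets of Trithorax genes and H3K27 demethylases, which keep them open, Kmt2a was called higher in proliferating KD cells (0.44). The Evx and ParaHox genes, relatives of the Hox genes of which Evx1 and Evx2 adjoin the Hoxa and Hoxd clusters, had 0 calls of 8 in the 5 comparisons (limma; 1, 2, 0, 1 and 0 at an unadjusted p under 0.05). Evx2 had a change of -0.29 for KD after RA with an adjusted p of 0.00815, under the fold limit. Of all probe sets 3.36% were called for KD in proliferating cells and 3.8% after RA. For RA they were 4.51% in control cells and 4.9% in KD cells, and for the interaction 0.399%. An unadjusted limma p under 0.05 was found for 14.9% to 33% of all probe sets by comparison. Whether any list differs from these shares was not tested.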

How the data were processed

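The values the authors deposited are on the log2 scale, with 1 value for each probe set on each of 12 Affymetrix mouse gene arrays. Per the study's methods they applied RMA background correction, quantile normalisation and a gene-level summary in R. RMA and limma are named in the submitters' notes, with versions not given in the sources used here. A shift in total RNA per cell is therefore not visible. The number of arrays limits the precision. Arrays correlated at 0.9967 to 0.9984 within groups and at 0.9898 to 0.9953 between them, and array medians were 7.146 to 7.209.

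Gene names came from the platform annotation: of 35556 probe sets, 21789 carried 1 symbol, 1621 several, and 12146 were unnamed here. In R 4.3.3, limma 3.58.1 (lmFit, contrasts and eBayes) estimated 4 group means from the 12 arrays, on the 21789 probe sets without a filter, so that every Hox gene was tested; the study's variance filter, which 14 of the 37 pass, was an alternative. Tests are two-sided, errors of changes are limma standard errors (SE), and intervals are 95% intervals from the same fit. Further alternatives covered all probe sets of the table, the 6 arrays of a comparison alone, repeated quantile normalisation, centring on array medians, array weights, a mean-variance trend, no fold cutoff, a replicate block and leaving out each array.

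Named were Hox genes called in a comparison, the largest rise and fall in each, and, from every list, at most 4 called genes. Hoxa4, Hoxb1, Hoxb4, Hoxb6, Hoxb7, Hoxc8, Hoxc9, Hoxd4, Rarb, Cyp26a1, Dhrs3, Evx2, Chgb, Gata2, Phox2a and Isl1 lie outside this rule and were named after their values were seen. The 9 lists were Hox cofactors, RA pathway and direct RA targets, upstream Hox activators, Polycomb group, Trithorax group and H3K27 demethylases, Evx and ParaHox, and markers of sympathoadrenal neuroblasts, of fibroblasts and mesenchyme and of glia. The members and lists were chosen with earlier results of these data known. Protein sequences were not used here. Not every gene of the clusters is reported here.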

Additional observations from a re-analysis of the deposited data

Results flagged for a closer look

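No Hox gene had an RA response that differed between control and KD cells past the threshold. Among the listed genes 3 did, by the interaction term of limma. Meis1 rose less with RA in KD cells than in control cells (interaction -0.54, adjusted p = 0.0227). Pbx3 also rose less in KD cells (interaction -0.44, adjusted p = 0.0227). Pdgfrb had changes with RA of -0.21 in control cells and 0.25 in KD cells, neither past the fold limit, and an interaction of 0.45 (adjusted p = 0.0285).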

How the results depend on the processing

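The count of 0 called Hox genes stayed at 0 in all 5 comparisons with the replicate block, the study's filter, all probe sets of the table, array weights and a mean-variance trend, and with the 6 arrays of a comparison alone where that could be fitted. For RA in KD cells the count was 1 (Hoxc6) with repeated quantile normalisation and with centred arrays, and 0 to 1 when each array was left out. Leaving out arrays gave 0 in the other 4 comparisons. With no fold cutoff the counts were 3, 4, 1, 2 and 0, in the order KD proliferating, KD after RA, RA in control cells, RA in KD cells and interaction.

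Labels number the replicates 1 to 3 in each group. Deviations from the group means correlated at -0.0769 to 0.211 over 18 pairs of same-numbered arrays, against -0.23 to 0.134 over 36 other pairs. These ranges overlap, and the 2 highest correlations (0.211 and 0.199) were of same-numbered arrays. The replicate block gave 0 called Hox genes in each comparison and 732, 831, 986, 1068 and 59 calls over all probe sets, the last for the interaction (87 without the block). With it, Hoxc9 in proliferating KD cells had an adjusted p of 0.057 (0.0387 without), and no other named Hox change moved across 0.05. All 14 named changes kept their sign. Hoxc6 kept an adjusted p under 0.05 under all 20 alternatives for RA in KD cells (highest 0.00374) and for KD after RA (highest 0.0417). The other changes with an adjusted p under 0.05 lost it under at least 4 alternatives each, most often when an array was left out: Hoxc9 in proliferating KD cells under 9 of 19 (highest 0.135), Hoxd11 after RA under 10 of 20 (highest 0.144) and Hoxc4 under 6 of 20 (highest 0.141). The cluster medians of Hoxb in proliferating KD cells and of Hoxd in KD cells after RA, followed under the alternatives after the data were seen, stayed below 0 in all 40 values. These medians were picked because all members of the cluster lay on one side. Many of the 40 values repeat the main one. A median does not change with the replicate block or when an array of another group is left out.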
